A study of Mus musculus with 6 samples.

Results

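The 3′ ends of the messenger RNAs of Pou5f1, Sox2, Nanog, Klf4 and Myc were followed across 6 libraries of 3′ end sequencing from V6.5 mouse embryonic stem cells, a line whose background combines C57BL/6 and 129. There were 2 libraries of untreated cells, 2 of cells that received an antisense morpholino oligonucleotide (AMO) of scrambled sequence, called the scrambled control, and 2 of cells that received an AMO against U1. The conditions of U1 inhibition follow a published U1 inhibition protocol, per the labels. The genes were located by fixed windows of 5001 to 9501 nt on the mm9 genome, 1 per gene, on the strand of the gene. Same-strand cleavage positions no more than 24 nt from the next formed a site. The 5 windows held 59 of the 931826 sites of the series: 6 for Pou5f1, 19 for Sox2, 12 for Nanog, 13 for Klf4 and 9 for Myc.

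Pou5f1 (Oct4), Sox2 and Nanog are transcription factors that hold embryonic stem cells in the pluripotent state. Klf4 and Myc, with Pou5f1 and Sox2, form the set of factors that reprograms somatic cells to pluripotency, and Myc RNA is known to turn over rapidly. Cleavage and polyadenylation make the 3′ end of each messenger RNA shortly after a signal hexamer, most often AATAAA. U1, the small nuclear ribonucleoprotein that pairs with 5′ splice sites, is also known to suppress cleavage at signals inside genes, so that transcription reaches the last signal. Sox2 has no intron, whereas the other genes here are spliced.

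The site with the highest mean level over the 6 libraries in each window was taken as the full 3′ end. Levels are CPM, counts scaled to 1000000 reads of a library. Each read marks an RNA 3′ end, so levels were compared between genes without a length scale. Whether capture, PCR or mapping differed between sites was not tested, so an order of genes is an order of reads. The signal hexamers deposited for the strongest position of each site, written whole in capitals, are shown because the full ends and the nearby ends of Myc and Nanog share a signal that the upstream sites of Sox2 and Klf4 lack. Distances in the names are upstream of the strongest position of the full end.
Pou5f1 full end: AATAAA
Sox2 full end: AATAAA
Nanog full end: AATAAA
Klf4 full end: AATAAA
Myc full end: AATAAA
Myc 112 nt upstream: AATAAA
Nanog 142 nt upstream: AATAAA
Sox2 239 nt upstream: CATAAA
Sox2 72 nt upstream: ACTAAT
Sox2 909 nt upstream: AATTAA
Klf4 533 nt upstream: AATACA

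All 5 full ends carried AATAAA, as did 67.7% of the 10293 sites of at least 10 CPM in the series. The hexamer lay 31 nt before the strongest cleavage position in Pou5f1, 30 nt in Klf4, 26 nt in Sox2, 23 nt in Nanog and 21 nt in Myc. Over the sites of at least 10 CPM the median of this distance was 21 nt, with 5% of sites under 16 nt and 5% over 31 nt. Pou5f1 and Klf4 were thus close to the longest 5%. Of the 59 sites in the windows, 12 had AATAAA and 14 had AATAAA or ATTAAA. Among the 31 sites more than 500 nt upstream of a full end, 3 had either signal, all in Nanog. Whether such a site lies in an exon or an intron was not assigned, because no mm9 annotation was used here.

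The libraries held 15752080 to 62257923 reads, the U1 AMO library of replicate 1 being the shallowest. Untreated replicate 2 had the fewest positions, 500472, although it held 60473882 reads. Replicate 2 had 1039972 positions under the scrambled control and 1193338 with the U1 AMO. Read depth alone thus does not show how well untreated replicate 2 covers minor sites, including those with 0 reads. Read names placed both libraries of replicate 1 of the AMO groups in the same run and lane, and both of replicate 2 in another run. The untreated libraries came from 2 further runs, so in every comparison with untreated cells treatment and run cannot be told apart. In bulk RNA, fewer cells of a type and less RNA per cell cannot be told apart either. The labels do not say that replicates came from separate cultures, so p-values measure the spread between these libraries, which may be technical. The protocol describes no molecular identifiers, so intervals of shares and limits from counts of 0 cover counting error only.

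In each library the full 3′ end held at least 98.8% of the reads of Pou5f1, Sox2 and Nanog, 90.8% to 100% of those of Klf4 and 67.6% to 88.9% of those of Myc. The 5 levels spanned more than 2 orders of magnitude. The full ends were at chr17:35647718-35647732 for Pou5f1, chr3:34551361-34551392 for Sox2, chr6:122664628-122664670 for Nanog, chr4:55540004-55540014 for Klf4 and chr15:61821904-61821924 for Myc. Their mean levels over the 6 libraries were 729 CPM for Sox2, 632 for Nanog, 122 for Pou5f1, 22.9 for Myc and 5.29 for Klf4. Sox2 ranked 133 and Nanog 170 among all sites of the series, and Klf4 ranked 13927. In untreated cells Sox2 was above Nanog in both libraries. With either AMO the Nanog levels spanned those of Sox2, so this neighbouring pair did not differ beyond its spread. Nanog lay above Pou5f1 and Pou5f1 above Myc in each library. Myc and Klf4 overlapped in untreated cells. Pou5f1, Sox2 and Nanog, which define the labelled cell type, had ends in all 6 libraries.

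**Figure D1:**
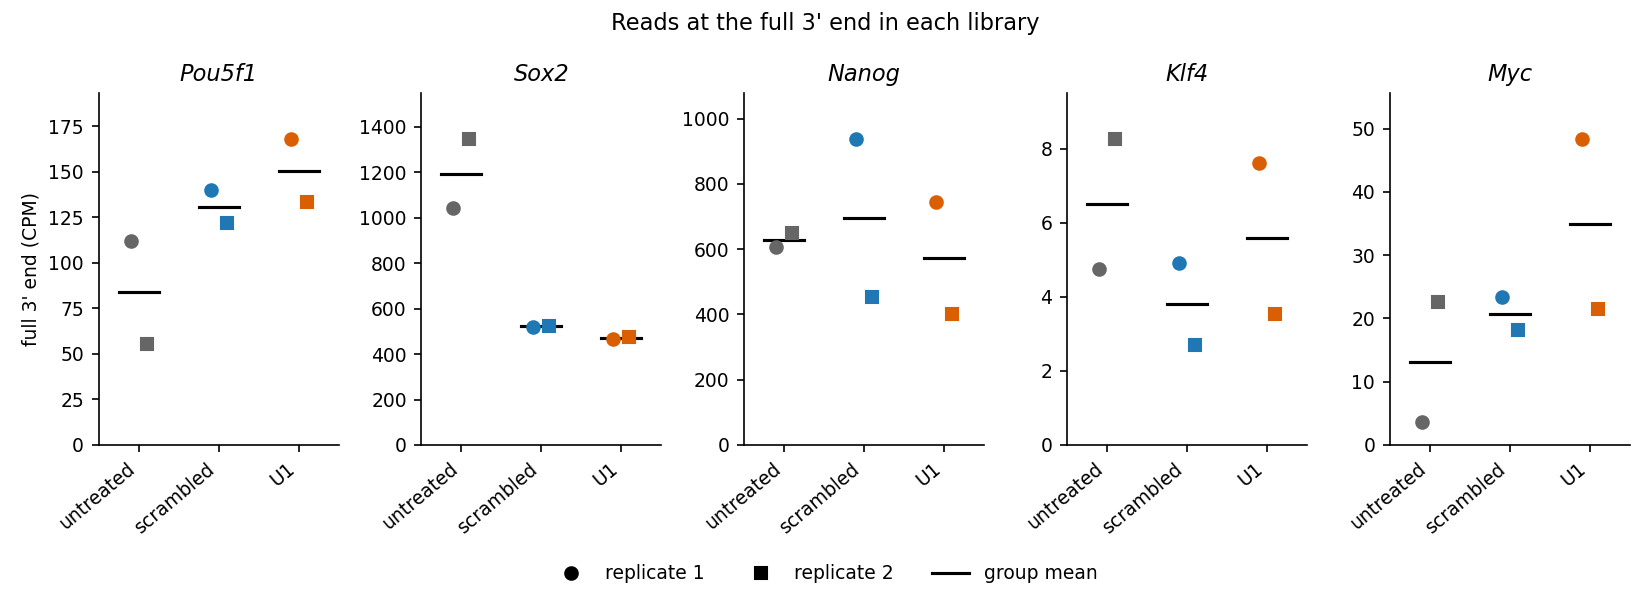
Level of the full 3′ end in CPM (linear axis from 0, scaled per gene) in each library, by group, with circles for replicate 1, squares for replicate 2 and a line at the group mean. Sox2 sits at 466 to 525 CPM in the 4 AMO libraries and at 1043 and 1345 in untreated cells, and Nanog separates by replicate number in the AMO groups.

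The first comparison asked whether inhibition of U1 changed these ends, with the scrambled control as the reference. Of the 59 sites, 13 passed the filter on low counts in the genome-wide test, the 5 full ends and 8 sites upstream of them. None of the 13 was called between the U1 AMO and the scrambled control (edgeR quasi-likelihood test, adjusted p under 0.05, and none at an unadjusted p under 0.05). Over all 80049 sites tested 0.666% were called and 8.88% had an unadjusted p under 0.05. DESeq2 called none of the 13 either, against 3.86% of all sites, every one of them higher with the U1 AMO. The median log2 fold change of the 13 was 0.18, against -0.02 over all sites tested. That order reversed without U1 AMO replicate 1 (-0.016 against 0.036) and held without any other AMO library. The 13 sites come from 5 genes and are not independent.

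Sox2, a partner of Pou5f1 in binding DNA, had 517 and 525 CPM at its full end under the scrambled control (replicates 1 and 2) and 466 and 474 with the U1 AMO. The groups did not overlap, and the U1 AMO level was 0.900 times the control level in the run of replicate 1 and 0.903 times in that of replicate 2. Among sites of at least 1 CPM, 19.9% were lower with the U1 AMO without overlap and 13.6% higher. The exact permutation p was 0.33 (n = 2 against 2, two-sided), the smallest this design allows. The edgeR log2 fold change was -0.17 ± 0.30 (SE), with an adjusted p of 1.

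Nanog, the homeodomain factor, had 937 and 453 CPM under the scrambled control and 745 and 401 under the U1 AMO. The level in replicate 1 was well above that in replicate 2 in both groups, and within each run the U1 AMO was lower, with ratios of 0.796 and 0.885. The edgeR log2 fold change was -0.30 ± 0.42 (SE). Pou5f1 had 139.9 and 122 CPM under the scrambled control and 168 and 134 under the U1 AMO, and the groups overlapped. The log2 fold change was 0.18 ± 0.41 (SE). Klf4, a zinc finger factor and the least abundant of the 5, had 4.92 and 2.70 CPM against 7.62 and 3.54, from 120 to 205 reads per library. The groups overlapped here as well, and within each run the U1 AMO was higher, with ratios of 1.55 and 1.31. The log2 fold change was 0.51 ± 0.51 (SE).

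Myc, the basic helix-loop-helix factor, had 23.4 and 18.2 CPM at its full end under the scrambled control and 48.3 and 21.5 under the U1 AMO. The U1 AMO level was 2.07 times the scrambled control level within replicate 1 and 1.19 times within replicate 2. In the 6-library fit the log2 fold change was 0.70 ± 0.74 (SE), with an adjusted p of 1 in edgeR. In a fit of the 4 AMO libraries with the replicate number as a block, which here equals the run, the Myc end was higher by 0.62 ± 0.17 (log2, SE), with an adjusted p of 0.00944 in edgeR. This was the only one of the 13 sites called in that fit, in which 15.6% of 68821 sites were called, 13.4% higher and 2.29% lower. That fit has 1 residual degree of freedom per site. Its SE and p therefore lean on a spread pooled over all sites tested. They do not measure how closely the runs agreed for Myc, where the ratios were 2.07 and 1.19.

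The share of each gene's reads at sites upstream of the full end was below 1.2% in every library for Pou5f1, Sox2 and Nanog. For Pou5f1 it was 0.0532% and 0.0264% under the scrambled control and 0.0756% and 0.103% under the U1 AMO, on 2, 2, 2 and 8 reads. For Nanog it was 0.143% and 0.1699% against 0.1701% and 0.189%, so the nearest libraries nearly tied. In both genes the U1 AMO libraries lay above the control libraries without overlap, with an exact permutation p of 0.33 (n = 2 against 2, two-sided), the smallest possible. The 95% Wilson intervals of all 4 AMO libraries overlapped in each of these 2 genes, so the order was within counting error. For Klf4 the share was 4.93% and 9.19% against 6.98% and 5.07%, and the groups overlapped. In untreated replicate 2 no read of 499 lay upstream in Klf4, which allows a share of up to 0.601% if 3 reads are taken as the limit and of up to 0.764% by the 95% Wilson interval.

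For Sox2 the upstream share was 0.729% (95% Wilson interval 0.601% to 0.884%) and 0.563% (0.487% to 0.649%) under the scrambled control. It was 1.16% (0.939% to 1.43%) and 0.791% (0.693% to 0.902%) with the U1 AMO, and 0.312% and 0.204% in untreated cells. The 3 groups were ordered without overlap, with the U1 AMO highest. The intervals of scrambled control replicate 1 and U1 AMO replicate 2 overlapped, and within each run the intervals did not. The difference between U1 AMO and the control was 0.329 percentage points, or 0.430 and 0.228 points run by run. It was 0.145 points without U1 AMO replicate 1 and 0.513 without U1 AMO replicate 2, and 0.155 points when only sites more than 500 nt upstream were counted. An exact permutation test gave p = 0.33 (n = 2 against 2, two-sided), the smallest possible. The full end, which dominates the total of this share, was itself lower in the AMO libraries.

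These shares were set beside all sites of at least 10 CPM that had no stronger same-strand site within 5 kb. Over these 8234 sites, the share of reads in the 5 kb upstream was higher with the U1 AMO in both replicate numbers at 32.1% and lower in both at 20.3%. Pou5f1, Sox2 and Nanog were among those higher in both, and Myc among those lower in both. Groups without overlap are a stricter criterion. Its share over these sites was not computed and can be at most 32.1% and 20.3%. Klf4 was under the limit of 10 CPM. The median share over the 8234 sites, averaged over the 6 libraries, was 1.21%, against 0.0480% for Pou5f1, 0.143% for Nanog, 0.626% for Sox2 and 25.1% for Myc.

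**Figure D2:**
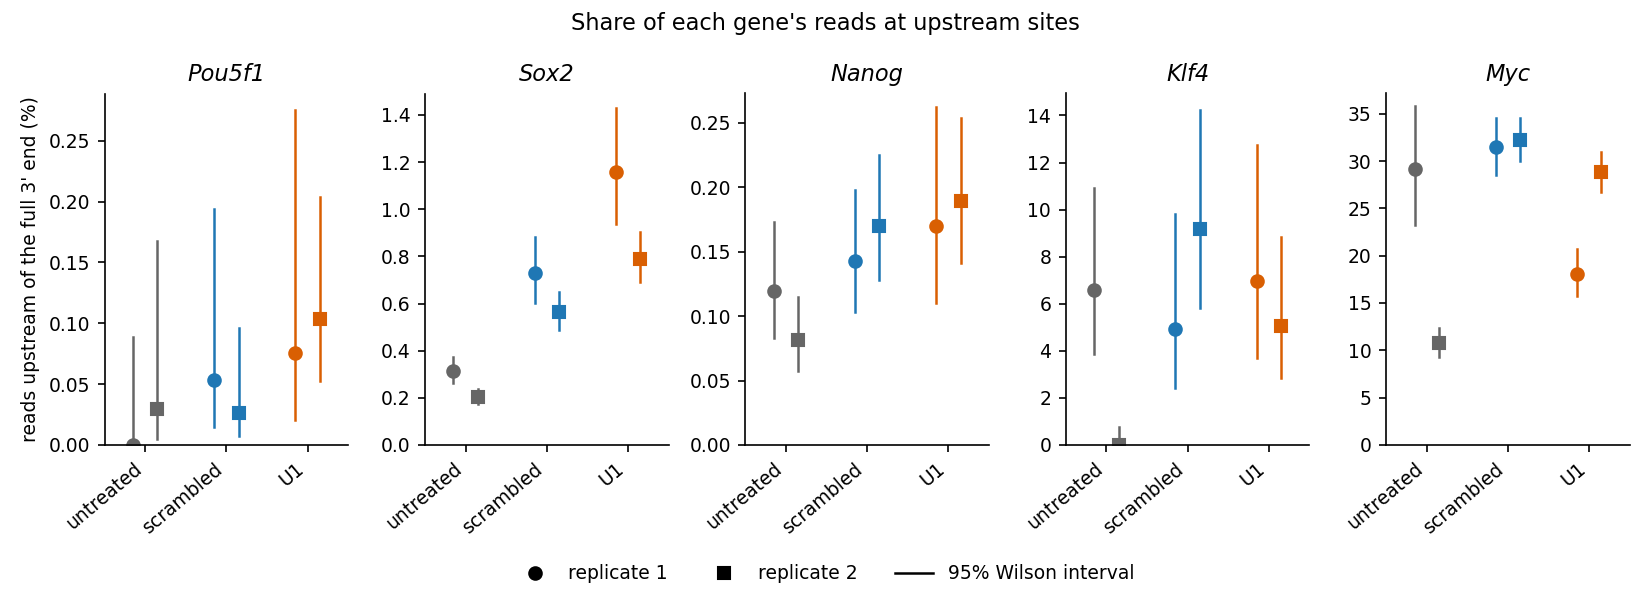
Percent of the reads in each gene's window that lie upstream of the full 3′ end (linear axis from 0, scaled per gene), by library and group, with 95% Wilson intervals as vertical lines. In Sox2 the share goes from 0.204% and 0.312% in untreated cells to 0.791% and 1.16% with the U1 AMO, and in Myc it ranges from 10.7% to 32.2%.

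The upstream reads of Sox2 came mostly from 3 sites, which did not move alike. The site 239 nt upstream (chr3:34551126-34551158, hexamer CATAAA) had 1.97 and 2.03 CPM untreated, 1.53 and 1.41 under the scrambled control and 2.54 and 1.29 under the U1 AMO. The site 72 nt upstream (chr3:34551292-34551321, ACTAAT) had 0.907 and 0.182, 0.596 and 0.835, and 0.952 and 0.777 CPM in the same order. At 239 nt the scrambled control lay below untreated cells and the U1 AMO libraries spanned both, and at 72 nt the 3 groups overlapped.

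The site 909 nt upstream of the Sox2 end (chr3:34550407-34550487, AATTAA) had higher levels in the AMO libraries. It had 0.104 and 0.149 CPM untreated, 0.745 and 0.353 under the scrambled control and 1.27 and 1.02 under the U1 AMO. The 3 groups did not overlap, the U1 AMO being highest, and the AMO mean was 6.71 times the untreated mean. At 1 CPM or more, 19.8% of sites were higher in all 4 AMO libraries than in both untreated ones. In that set 13.6% were higher with the U1 AMO than under the scrambled control without overlap. This Sox2 site averaged 0.607 CPM, below that limit. The log2 fold change of U1 AMO against scrambled control was 1.07 ± 0.66 (SE), with an adjusted p of 1 in edgeR, and 1.16 ± 0.42 with an adjusted p of 0.0593 in the 4-library edgeR fit with the replicate block. Against untreated cells the U1 AMO gave a log2 fold change of 3.09 ± 0.72 (SE), with an adjusted p of 0.0579 in edgeR and 0.00891 in DESeq2, and of 0.0287 to 0.210 over the edgeR alternatives. This site held 4 to 59 reads per library, and its strongest position lay 9 nt after the hexamer. That position alone took 81.8% to 100% of the site's reads in each library. Without molecular identifiers, PCR copies at 1 position cannot be told from separate RNAs. Of the site's reads, 92.5% were assigned to that hexamer.

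The Sox2 window also held 5 sites downstream of the full end, none with more than 4 reads in a library, the strongest 575 nt away (CATAAA). Sox2 overlaps the noncoding gene Sox2ot in the RefSeq table of assembly GRCm38.p6, so a read at a minor site here may belong to either gene where both are on this strand. The other 4 genes overlapped no gene in that table.

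**Figure D3:**
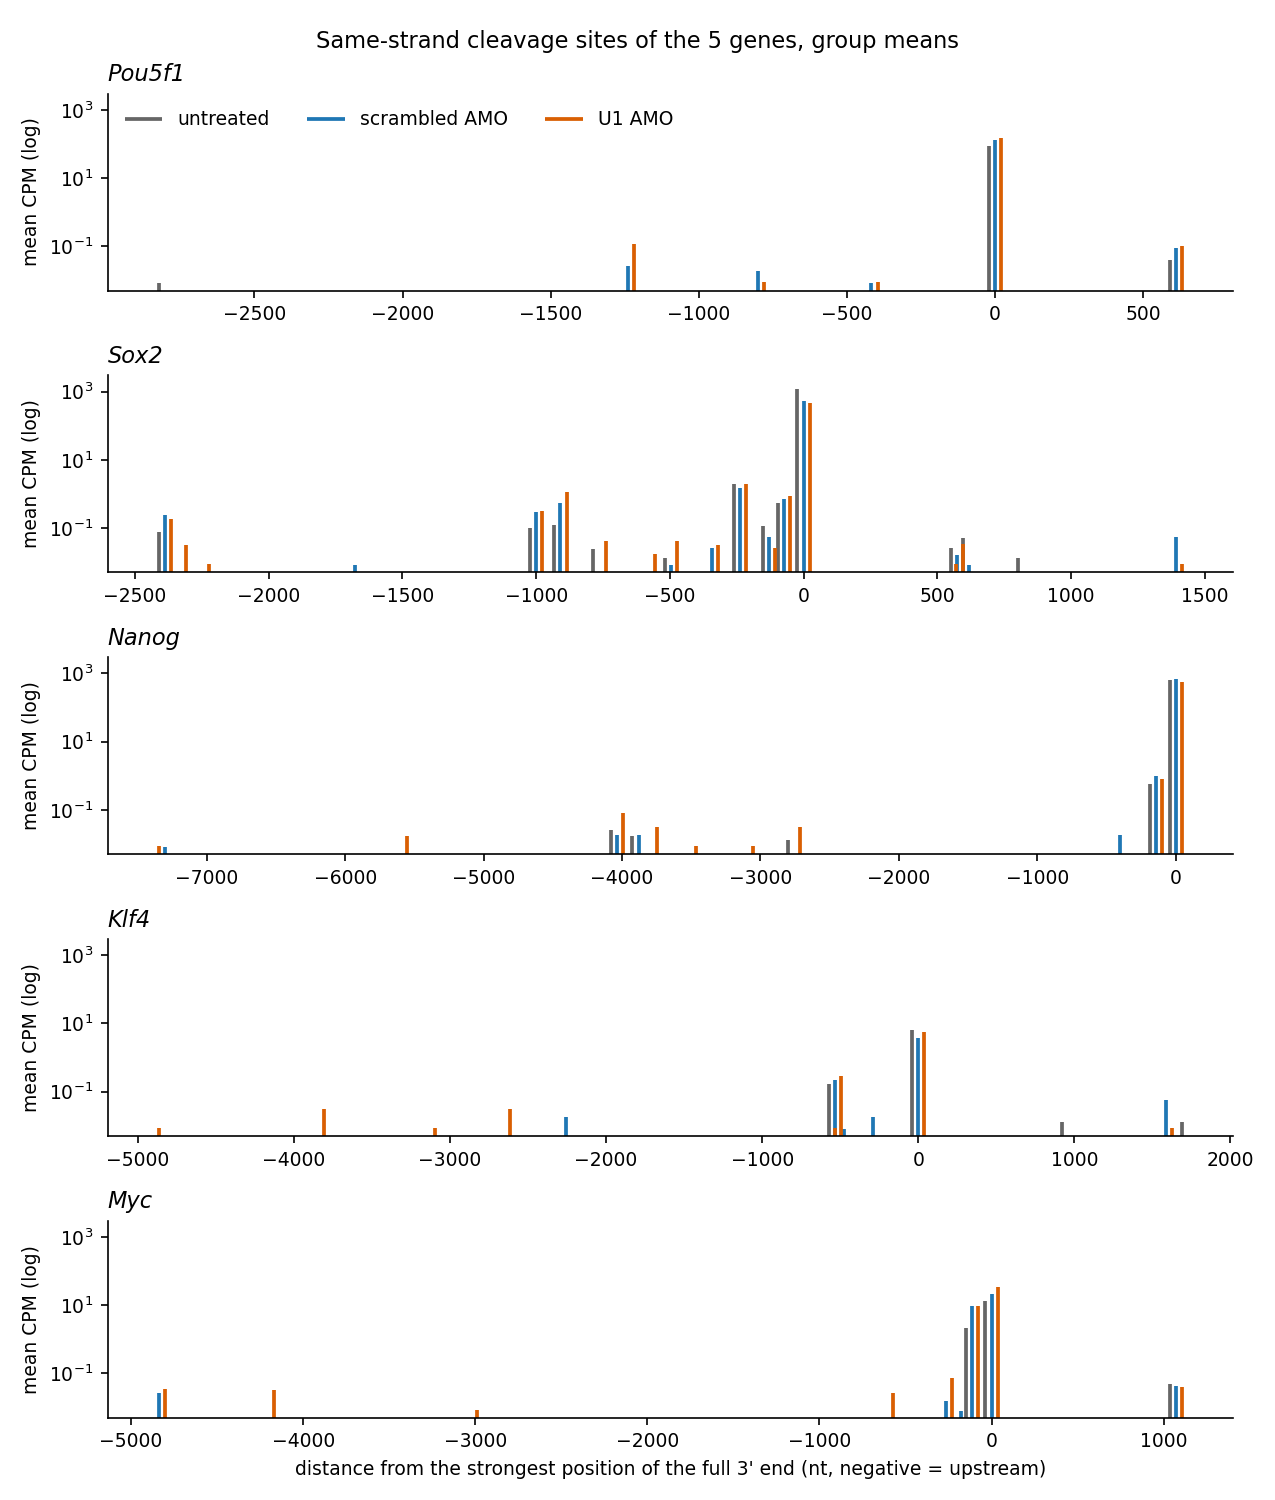
Group mean level in CPM (log axis) of every same-strand site in the 5 windows, against distance in nt from the strongest position of the full 3′ end; the 3 groups are drawn side by side at each site. The full ends at 0 stand far above all other sites except in Myc, where the site 112 nt upstream is close in level.

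Sites more than 500 nt upstream of a full end held few reads. Summed over the 31 such sites of the 5 genes, the level was 0.674 and 0.446 CPM untreated, 2.05 and 0.883 under the scrambled control and 2.86 and 2.21 under the U1 AMO. Without Sox2 the 23 sites of the other 4 genes summed to 0.415 and 0.0496, 0.410 and 0.305, and 1.02 and 0.570 CPM, from 3 to 33 reads per library. Both sums were higher with the U1 AMO in both runs. Of the 31 sites, 18 (58.1%) had reads with the U1 AMO and none under the scrambled control, and 4 (12.9%) the reverse. Those 18 had at most 3 reads each with the U1 AMO, and 17 were seen in only 1 of the 2 U1 AMO libraries. A site is listed once any library has 1 read there, so these shares do not test an effect of the U1 AMO. Over the 39040 sites lying 0.5 to 5 kb upstream of the isolated sites of at least 10 CPM, the same shares were 26.9% and 19.9%. The 2 sets are not matched. The 31 include sites of Klf4, whose end is under 10 CPM, and Nanog sites up to 7390 nt upstream. The scrambled control libraries together held more reads than the U1 AMO libraries. Positions did not follow reads alone. The U1 AMO library had 683584 against 804486 positions under the scrambled control in replicate 1, and 1193338 against 1039972 in replicate 2.

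In Pou5f1 the strongest upstream site was 1238 nt before the full end (chr17:35646469-35646492, AACAAT), with no read in untreated cells, 1 read in each scrambled control library and 2 and 6 with the U1 AMO. Its next site, 800 nt upstream (ACTAAA), had 2 reads in all. In Nanog the strongest site beyond 500 nt was 4037 nt upstream (chr6:122660599-122660625, AATAAA), with 2 reads in each U1 AMO library and at most 2 in any other. The Klf4 site 533 nt upstream (chr4:55540537-55540551, AATACA) had 0.337 and 0 CPM untreated, 0.186 and 0.257 under the scrambled control and 0.444 and 0.138 under the U1 AMO, so the groups overlapped. The other 8 upstream sites of Klf4 had 1 read each, and its strongest downstream site, at 1584 nt (AATAAA), had 4. The second upstream site of Myc, at 265 nt (TATAAA), had 5 reads, and its downstream site, at 1070 nt (AATAAA), had 12. In Myc a position 4838 nt upstream (AAAAGA) had 1 read in each scrambled control library and 0 and 4 with the U1 AMO. At these counts a difference between the AMO groups was not detectable.

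Nanog had a minor tandem end close to the full one. The site 142 nt upstream (chr6:122664507-122664539, AATAAA) had 0.648 and 0.496 CPM untreated, 1.23 and 0.755 under the scrambled control and 1.02 and 0.639 under the U1 AMO. The AMO groups overlapped, and the log2 fold change between them was -0.29 ± 0.61 (SE). Pou5f1 had a site 610 nt downstream of its full end (chr17:35648332-35648338, ATTAAA) with at most 9 reads in a library.

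The scrambled control was then set against untreated cells, which bears on delivery of a morpholino, and so was the U1 AMO. These comparisons share the untreated libraries. No site of the series was called for the scrambled control in edgeR, so 0 of the 13. At an unadjusted p under 0.05 there were 10490 sites (13.1%), among them 3 of the 13 tested here. DESeq2 called 2181 sites (2.72%, with 1.71% higher and 1.02% lower), of which 2 were among the 13, the full end of Sox2 and the site of Myc 112 nt upstream. For the U1 AMO against untreated cells edgeR called 3916 sites (4.89%, with 4.39% higher and 0.505% lower), of which 1 was among the 13, the same Myc site. DESeq2 called 3 of the 13 in that comparison, against 12.6% of all sites tested, 9.99% higher and 2.59% lower. At an unadjusted p under 0.05 edgeR had 3 of the 13 there, against 23.8% of all sites. Without overlap between the groups, 27.5% of sites of at least 1 CPM were higher and 28.5% lower with the U1 AMO than in untreated cells, and 25.6% and 22.8% with the scrambled control.

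The Sox2 end was lower in all 4 AMO libraries than in both untreated ones. Untreated cells had 1043 and 1345 CPM, and the AMO libraries had 466 to 525. The AMO mean was 0.415 times the untreated mean. Among sites of at least 1 CPM, 20.1% were lower in all 4 AMO libraries than in both untreated libraries, so this order alone was common. The log2 fold change of the scrambled control against untreated cells was -1.22 ± 0.31 (SE), with an adjusted p of 0.266 in edgeR and 0.0121 in DESeq2. For the U1 AMO it was -1.39 ± 0.31 (SE), with an adjusted p of 0.0523 in edgeR and 0.000913 in DESeq2. Among its edgeR alternatives the second value passed the threshold in some, such as without untreated replicate 1 (adjusted p = 0.0358) and with library size alone as the scale (0.0467). It did not in others, such as without U1 AMO replicate 1 (0.457) and with low counts kept (0.883).

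Pou5f1 went the other way in order. Its full end had 112 and 55.7 CPM in untreated cells and 122 to 168 in the AMO libraries, without overlap, as did 19.8% of sites of at least 1 CPM. The log2 fold change was 0.58 ± 0.41 (SE) for the scrambled control and 0.76 ± 0.41 for the U1 AMO, with adjusted p of 0.589 and 0.319 in edgeR. These values rested on which untreated library was used. Without untreated replicate 1 they became 1.31 and 1.47 (adjusted p of 0.112 and 0.0433 in edgeR), and without untreated replicate 2 they became 0.14 and 0.31 (0.877 and 0.584). Nanog had 606 and 649.6 CPM untreated, within the range of the AMO libraries. Klf4 had 4.74 and 8.25 CPM untreated, and these values overlapped both AMO groups.

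Myc used a pair of tandem ends, and the upstream one had higher levels in all 4 AMO libraries than in untreated cells. The upstream end (chr15:61821793-61821865) lies 112 nt before the full end, has an AATAAA of its own and spread over 36 positions. Its level was 1.50 and 2.73 CPM untreated, 10.7 and 8.59 under the scrambled control and 10.5 and 8.56 under the U1 AMO. The 4 AMO libraries lay close together and above both untreated ones, an order shared by 19.8% of sites of at least 1 CPM. They averaged 4.53 times the untreated mean. The log2 fold change was 2.17 ± 0.40 (SE) for the scrambled control, with an adjusted p of 0.266 in edgeR, 0.000545 in DESeq2 and 0.0239 in edgeR with low counts kept. For the U1 AMO it was 2.12 ± 0.40 (SE), with an adjusted p of 0.0392 in edgeR. The edgeR call did not hold with the replicate block in 6 libraries (adjusted p = 0.0929), without U1 AMO replicate 1 (0.0727) or without U1 AMO replicate 2 (0.139). It was also lost when scrambled control replicate 1 or 2 was left out of the shared fit (0.0503 and 0.0552). Between the U1 AMO and the scrambled control the log2 fold change was -0.042 ± 0.39 (SE).

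The full end of Myc had 3.66 and 22.6 CPM untreated, a spread that reached the AMO range of 18.2 to 48.3. Its log2 fold change of the U1 AMO against untreated cells was 1.37 ± 0.75 (SE), with an adjusted p of 0.327 in edgeR. Without untreated replicate 2 it became 3.10 (adjusted p of 0.0486 in edgeR), and without untreated replicate 1 it became 0.64 (0.378). As a share of the Myc reads, the sites upstream of the full end took 29.1% and 10.7% untreated, 31.5% and 32.2% under the scrambled control and 18.1% and 28.8% under the U1 AMO. The U1 AMO share was lower than that of the scrambled control in both runs, with differences of -13.4 points in replicate 1 and -3.45 points in replicate 2. Of the isolated sites of at least 10 CPM, 20.3% were lower in both replicate numbers by their 5 kb upstream share. In points, 0.789% of them had a lower difference than Myc (-8.46), whose mean share was high (25.1%). The AMO groups did not overlap in the share of the Myc reads, and the exact permutation p was 0.33 (n = 2 against 2, two-sided), the smallest possible. The untreated libraries overlapped the U1 AMO range. The level of the upstream end was alike in both AMO groups (10.7 and 8.59 against 10.5 and 8.56 CPM). The full end was higher with the U1 AMO in both runs.

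**Figure D4:**
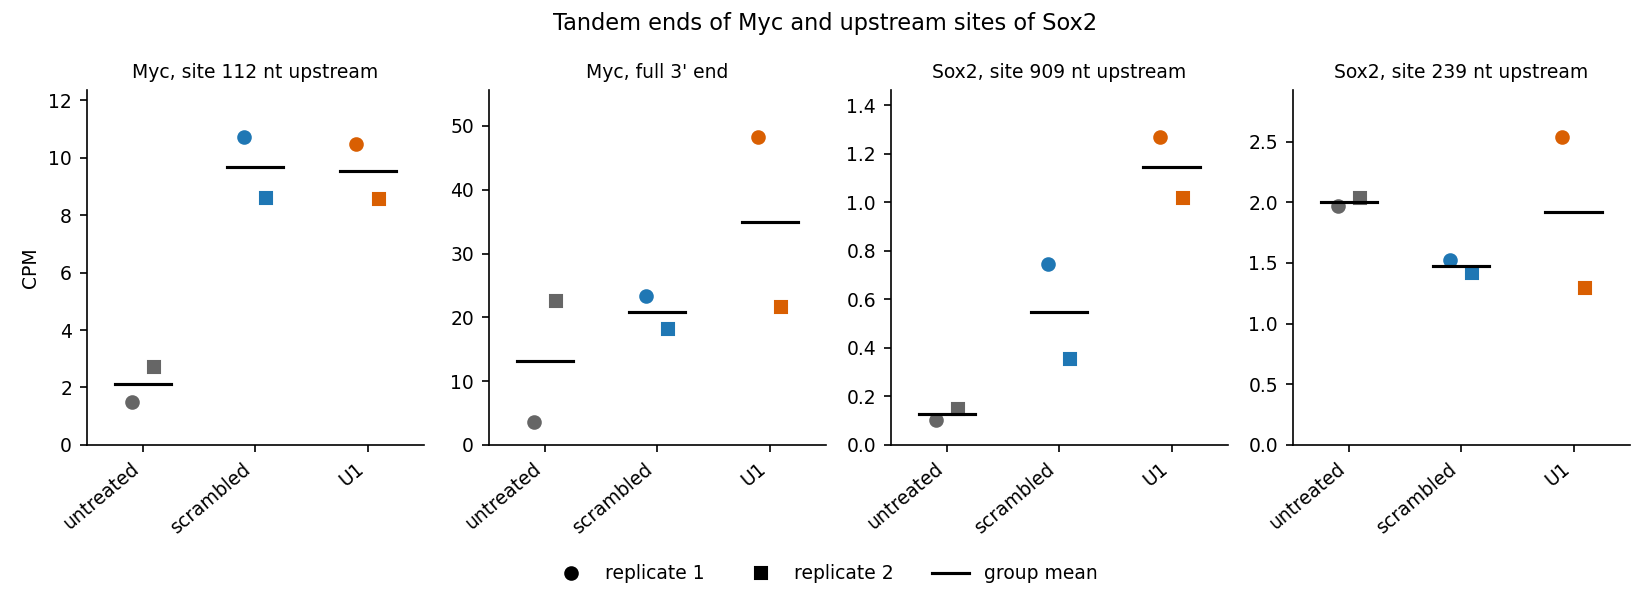
Level in CPM (linear axes from 0) of the upstream and full ends of Myc and of the Sox2 sites 909 and 239 nt upstream, by library and group, with circles for replicate 1, squares for replicate 2 and a line at the group mean. The Myc upstream end lies at 8.56 to 10.7 CPM in the 4 AMO libraries and at 1.50 and 2.73 in untreated cells, while the Myc full end has a single high library, U1 AMO replicate 1 at 48.3.

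Within each full end the cleavage positions were spread over 11 to 43 nt, with the same leading positions in the 3 groups. Sox2 was cut mainly at chr3:34551380, with 45.4% and 49.0% of the reads of the end in untreated cells, 42.0% and 44.5% under the scrambled control and 43.2% and 45.1% under the U1 AMO. Pou5f1 had 3 preferred positions. Over the 6 libraries chr17:35647723 took 29.3% to 42.0%, the position 5 nt before it 25.5% to 29.0% and the position 1 nt before it 19.7% to 25.9%. In Nanog the leading position, chr6:122664650, took 44.7% to 64.8% and a second one 6 nt before it took 23.1% to 27.6%. Klf4 and Myc had 1 leading position each, with 44.7% to 62.5% and 58.9% to 76.9% of reads.

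Smaller shares at a neighbouring position went with the replicate number. The position 1 nt after the leading one of Myc took 13.4% under the scrambled control and 13.7% under the U1 AMO in replicate 1, against 3.63% and 6.17% in replicate 2. In untreated cells it took 7.09% and 1.17%. For Klf4 the same position took 22.7% and 25.8% in replicate 1 and 18.5% in both libraries of replicate 2. Whether the run, the depth or the culture sets these shares was not tested.

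**Figure D5:**
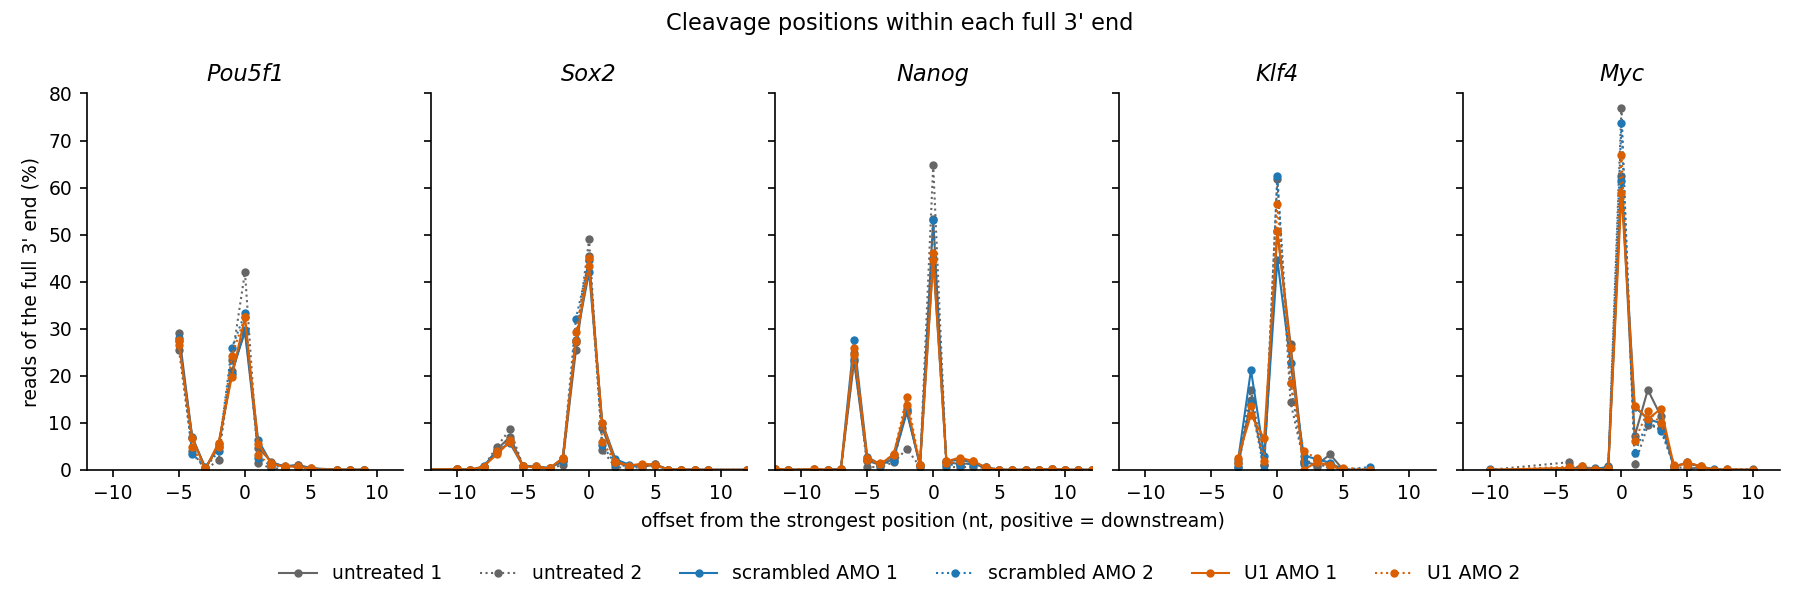
Percent of the reads of each full 3′ end (linear axis) at each position, against the offset in nt from its strongest position within 12 nt to either side, with colours for groups, solid lines for replicate 1 and dotted lines for replicate 2. Pou5f1 and Nanog have a second peak 5 and 6 nt before the first, and the profiles of the 6 libraries share their peaks.

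Reads on the opposite strand, which did not enter the choice of sites, were few. Within the windows they came to at most 0.762 CPM per gene and library, and in the 5 kb on the 5′ side of the windows to at most 0.363. In none of these 10 regions did both U1 AMO libraries exceed all 4 others. Singled out after its values were seen, a site beside the Myc end at chr15:61822618-61822619 (minus strand, TATAAA) differed between runs. It had 0.207 and 0.0165 CPM untreated, 0.0372 and 0.675 under the scrambled control and 0 and 0.691 under the U1 AMO, so it was high in replicate 2 of both AMO groups. On the 5′ side of Sox2 the opposite strand held 0.335 and 0.145 CPM under the scrambled control and 0.254 and 0.363 under the U1 AMO, and the groups overlapped.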

How the data were processed

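Polyadenylated RNA 3′ ends were sequenced on an Illumina HiSeq after RNase T1 fragmentation, reverse transcription, circularisation and PCR, per the labels' protocols. The submitters' processing notes name cutadapt, Bowtie and mm9, without versions. The authors deposited, per library, stranded positions with raw read counts, a hexamer (36 kinds), its distance to the position (6 to 40 nt) and a score from 0 to 10 of unstated meaning that was not used. The filter behind these lists is not given in the sources consulted. As deposited, the score at the strongest position of the full end was 3 in Pou5f1, 5 in Sox2 and Myc, and 2 in Nanog and Klf4. It was 10 at the Myc site 112 nt upstream and 8 at the Sox2 site 909 nt upstream. The Sox2 sites 239 and 72 nt upstream had 5 and 6, and the sites Nanog 142 nt and Klf4 533 nt upstream had 2. Whether the sequence around the sites with high scores affected their reads was not tested.

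Positions of all libraries were joined at 24 nt, and counts summed per site were tested with edgeR 4.0.16 (R 4.3.3, TMM, filterByExpr, quasi-likelihood test, 6 libraries in 3 groups, Benjamini-Hochberg adjustment over 80049 sites, threshold 0.05). Each SE is the size of the log2 fold change over the root of F. DESeq2 1.42.0 was an alternative; an adjusted p it did not give stayed missing. CPM used the deposited total of each library. Differences in levels and shares were tested with exact two-sided permutation tests, whose smallest p for 2 against 2 is 0.33. Same-numbered libraries of the AMO groups deviated together from their group means (r = 0.75 across 29450 sites), and read names gave them the same run; with untreated cells r was -0.41 and -0.36. The replicate block of the 4 AMO libraries is therefore the run. Named sites were the full end, the 2 strongest upstream sites and the strongest downstream site of each gene, and any site passing a test. Members, windows and lists were chosen with earlier results of these data known.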

Additional observations from a re-analysis of the deposited data

How the results depend on the processing

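The 533 sites called between U1 AMO and scrambled AMO numbered 3087 in DESeq2, 2912 when low counts were kept, 2590 with the 4 AMO libraries alone and 0 with the replicate block in 6 libraries (edgeR, 5676 at an unadjusted p under 0.05). With the replicate block in the 4 AMO libraries they became 10769, and with that block and library size alone 10586 or RLE factors 11232. Leaving out 1 library of these groups gave 0 to 1157 (the 0, with 4613 at an unadjusted p under 0.05, came when scrambled AMO replicate 2 was dropped), and leaving out an untreated library 2760 or 2951. The 0 calls between scrambled AMO and untreated cells became 2181 in DESeq2 and 1279 when low counts were kept, stayed 0 without any library of these groups and became 22 without U1 AMO replicate 1. The 3916 calls between U1 AMO and untreated cells became 10077, 7175 and, with the block, 0 (16724 at an unadjusted p under 0.05); without 1 library they were 1015 to 8760. With the untreated numbers crossed in the 6-library block, the calls were 1729 for U1 AMO against scrambled AMO and 9036 for U1 AMO against untreated cells, 3 of them among the 13 tested sites of these genes. The cause of these shifts was not tested. Library size alone, crossed numbers, libraries left out of the third group and the 4-library block with another scale were chosen after seeing the data. A group left with 1 library is assumed to vary like the others.

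Of 135 alternative values of shares and end levels, 128 kept their direction. That count includes settings that returned the main value itself. The replicate block must do so by construction. Joining at 10 nt and choosing the full end from the untreated libraries also did so. With all sites within 500 nt counted as the full end, the difference in upstream share became 0.197 points for Myc (U1 AMO minus scrambled AMO) and -0.00321 for Nanog (scrambled AMO minus untreated). With positions of at least 2 reads that of Pou5f1 (scrambled AMO minus untreated) became 0. Leaving out 1 library moved the U1 AMO minus scrambled AMO difference from 0.145 to 0.513 points for the Sox2 share, from -13.8 to -3.07 points for the Myc share, from -3.17 to 1.09 points for the Klf4 share, from -363.6 to 120.0 CPM for the Nanog end and from -0.27 to 3.81 CPM for the Klf4 end. The mean of the differences within replicate numbers (the replicate block) equals the difference of group means by construction, 0.329 points for Sox2 and -8.43 for Myc.

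Of 472 alternative log2 fold changes of the named sites, 25 turned sign, each in a comparison in which edgeR had not called the site. For U1 AMO against scrambled AMO the Klf4 site at 533 nt became -0.23 with the 6-library replicate block and -0.042, -0.026 and -0.084 with the 4-library block (TMM, library size, RLE), and the Myc site upstream became 0.000114 with DESeq2 and 0.000724 with RLE factors. Leaving out 1 library gave -0.057 to 0.71 (Sox2, strongest upstream site), -0.079 to 0.61 (Sox2, 72 nt), -0.65 to 0.19 (Nanog end), -0.59 to 0.88 (Klf4, 533 nt) and -0.10 to 0.051 (Myc, upstream). For scrambled AMO against untreated cells it gave -0.39 to 2.08 (Sox2, 72 nt), -0.34 to 0.46 (Nanog end), -0.63 to 6.38 (Klf4, 533 nt) and -0.045 to 2.42 (Myc end). For U1 AMO against untreated cells it gave -0.43 to 0.26 (Sox2, strongest upstream site), -0.19 to 2.26 (Sox2, 72 nt), -0.45 to 0.17 (Nanog end), -0.49 to 6.52 (Klf4, 533 nt) and -0.66 to 0.16 (Klf4 end). Depth limits Klf4, with 120 to 499 reads at its full end per library, the Myc full end in untreated replicate 1, with 141, and the upstream share of Pou5f1, with 0 to 8 reads.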
